A study of Mus musculus with 12 samples.

Results

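The genes described here belong to the cilium, the microtubule-based projection of the cell surface. A gene was included when its symbol began with Dnah, Dnai, Dnal, Cfap, Ift, Bbs, Tekt or Rsph followed by a number, as its current or a former symbol, or when it was Foxj1, Enkur, Rfx2, Rfx3, Spag6, Spag16, Spag17, Hydin, Mcidas or Tmem212. The platform annotation gave 89 such genes with 164 probes, of 19057 named genes and 45281 probes on the array. Of these genes 10 entered by a synonym in the gene table, taken as a former symbol without regard to which name is older. Among them were Ttc26 (synonym Ift56), Maats1 (Cfap91) and Dnaic1 (Dnai1). Messenger RNA came from hippocampi of C57BL/6J males aged 3 weeks and was measured on Illumina bead arrays, 1 a sample. The ethanol group held 6 arrays from offspring of dams that chose to drink 10% ethanol between 0.5 and 8.5 days after conception, and the control group held 6 arrays labelled as controls. The labels print the drinking protocol on the control samples too, and it was read here as the ethanol group's alone because the treatment label names it only there. The 2 beadchips held 3 arrays of each group. How many litters were sampled is not in the labels, so the spread within a group may be technical or shared by littermates.

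A motile cilium beats because dynein arms walk along its ring of microtubule doublets, while radial spokes and a central pair of microtubules set the pattern of the beat. In the brain such cilia stand on ependymal cells, which line the ventricles beside the hippocampus, and they are also found on the choroid plexus. Neurons instead carry a single non-motile primary cilium, a signalling antenna. Both kinds are built by intraflagellar transport (IFT), in which the IFT-A and IFT-B complexes carry cargo along the cilium, and the BBSome, a coat complex named after Bardet-Biedl syndrome, moves membrane proteins out of it. By these roles, or by symbol for the CFAP genes, 58 of the genes were put with the motile cilium and 27 with transport (IFT, the BBSome and its chaperonins). Another 2 were the RFX transcription factors, which switch on ciliary genes. The remaining 2, the ubiquitin ligase Trim32 and the inositol kinase Ppip5k2, were included only through a ciliary alias. Of the 58 motile genes 28 were CFAP genes, placed there by symbol.

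A gene could be tested when at least 1 of its probes was detected, with a detection p-value under 0.05, on 6 or more of the 12 arrays. That held for 60 of the 89 genes: 32 of 58 motile genes, 24 of 27 transport genes, both RFX factors and both alias genes. The other 29 were left untested, and 19 of them were detected on 0 arrays by every probe they had. Those 19 included Mcidas, which starts the multiciliated cell programme upstream of Foxj1, and Spag6 and Spag17, parts of the central apparatus. They also included Tmem212, the outer arm heavy chain Dnah5, the inner arm heavy chains Dnah1, Dnah2, Dnah6 and Dnah10, and the IFT-A subunit Wdr19. Hydin, a central apparatus protein whose loss gives hydrocephalus in mice, was detected on 1 array. The IFT-B subunit Ift46 was detected on 5 arrays and Cfap298 on 4. A probe that was not detected gives no level, so nothing is said below of the amount of these 29 messages.

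The promoters of some members are printed here because they carry the DNA element that RFX factors bind, the X-box, or its 7-base core GTTGCCA. Windows from 250 bases before to 50 bases after the gene start were taken from RefSeq on GRCm38.p6, and 78 of the 89 genes had one. Searching both strands, the X-box was found in 10 of the 78 genes (12.8%), against 1.75% of all 27025 genes with a window. By role it was found in 8 of 50 motile genes (16%) and in 2 of 24 transport genes (8.33%). The core GTTGCCA, which can lie inside an X-box and then counts for both, was found in 16 of the 78 genes (20.5%), against 5.02% of all genes. The forkhead core GTAAACA, a short form of the sequence bound by FOXJ1 and its relatives, was found in 4 of the 78 genes (5.13%), against 4.05% of all genes. A match describes letters in the window and does not show binding. Below, each window is given 5′ to 3′ on the strand of its gene, base 251 is the gene start, and capitals mark the match. The X-box of Cfap45, like the GTTGCCA of Ift88, is matched on the other strand.
Tekt1 (chr11:72361833-72362132, minus strand; GTTGCCA at bases 236 to 242): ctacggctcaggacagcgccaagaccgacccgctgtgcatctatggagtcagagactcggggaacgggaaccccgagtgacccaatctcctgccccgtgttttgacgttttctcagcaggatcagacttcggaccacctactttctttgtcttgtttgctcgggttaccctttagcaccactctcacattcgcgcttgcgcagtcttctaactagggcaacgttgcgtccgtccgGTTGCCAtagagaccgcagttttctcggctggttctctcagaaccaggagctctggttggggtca
Spag16 (chr1:69826720-69827019, plus strand; X-box at bases 148 to 161): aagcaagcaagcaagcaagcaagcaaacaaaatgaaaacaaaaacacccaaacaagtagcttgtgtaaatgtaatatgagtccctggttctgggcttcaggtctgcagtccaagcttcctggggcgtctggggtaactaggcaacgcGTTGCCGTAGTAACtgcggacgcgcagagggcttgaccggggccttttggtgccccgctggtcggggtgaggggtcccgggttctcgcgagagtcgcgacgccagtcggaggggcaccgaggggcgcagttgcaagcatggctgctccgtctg
Cfap45 (chr1:172520880-172521179, plus strand; X-box at bases 232 to 245): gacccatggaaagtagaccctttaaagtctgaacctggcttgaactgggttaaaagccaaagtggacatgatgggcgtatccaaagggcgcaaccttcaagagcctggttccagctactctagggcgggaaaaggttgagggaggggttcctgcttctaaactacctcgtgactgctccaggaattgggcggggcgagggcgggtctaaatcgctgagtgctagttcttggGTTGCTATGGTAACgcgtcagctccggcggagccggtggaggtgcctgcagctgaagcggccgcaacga
Ift88 (chr14:57423821-57424120, plus strand; GTTGCCA read on the other strand, at bases 271 to 277): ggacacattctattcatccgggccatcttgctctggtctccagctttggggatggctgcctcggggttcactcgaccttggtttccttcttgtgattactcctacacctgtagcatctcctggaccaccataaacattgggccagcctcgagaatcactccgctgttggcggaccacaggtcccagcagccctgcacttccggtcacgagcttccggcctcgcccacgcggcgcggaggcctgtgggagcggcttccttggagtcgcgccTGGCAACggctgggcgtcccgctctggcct
Tekt1 and Spag16 lead the account of the array-to-array pattern below. Cfap45 and Ift88 are among the 6 members lower in ethanol with the smallest unadjusted p-values. In the limma comparison below these were 0.15 and 0.121, and neither gene passed.

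Before ethanol is compared with control, a split among the arrays has to be described, because part of the motile genes moved with it. Ttr, which encodes transthyretin and is made in the brain mainly by the choroid plexus, divided the arrays into separate clusters. Values from here on are log2 of the normalized bead signal. Ttr was at 10.07 and 9.62 in ethanol arrays 1 and 3 and at 11.00 and 8.33 in control arrays 1 and 4, and the other 8 arrays lay between 15.56 and 15.81. The 2 clusters stood 4.57 apart on the log2 scale, and each treatment group held 2 of the 4 arrays low in Ttr. In raw units Ttr reached 59100.6, close to the highest intensity of any probe at 66558.7, so its upper values may be compressed by the scanner's range. Beside Ttr, which defined the clusters, 10 of 10 tested genes of a choroid plexus list had every low array below every other array. Of these 10 genes 5 were detected on 0 of the low arrays and so were testable only through the other 8, and 2 were detected on all 12. Among these was Kl, which encodes klotho, at 7.50 to 8.03 in the arrays low in Ttr, against 10.01 to 10.71 in the other 8. The folate receptor Folr1 was not detected on the arrays low in Ttr, where its 4.75 to 4.94 is background, against 9.23 to 9.94 in the others. Of 8 genes in a hippocampal neuron list 7 were tested, and Neurod6 was not, for want of detection on enough arrays. None of the 7 showed such a split, and all 7 were detected on 12 arrays. Messages of this neuronal list were thus present on every array, and whether they mark the hippocampus alone was not tested. The arrays were sorted into these clusters by a measured gene, so what follows is given without a test. In tissue samples of this kind, fewer cells of a type and less RNA per cell cannot be told apart.

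Most of the members that followed the split were motile cilium genes. In 6 of 32 tested motile genes (18.8%) all 4 arrays low in Ttr lay below all other 8. Among transport genes this was 1 of 24 (4.17%), and among all members 7 of 60 (11.7%), while 2.82% of the 11401 named genes tested had the same order. The count takes in genes that were testable mainly through the other 8 arrays, and Spag16 was detected on none of the low arrays. Among genes detected on all 12 arrays the order held for 4 of 23 motile genes and 1 of 23 transport genes, against 2.57% of all named genes so detected. In the opposite order, with all low arrays above the rest, stood 0 of 60 members and 1.01% of all genes. The 7 were Tekt1, Spag16, Cfap97d2, Cfap52, Rsph1, Ift43 and Cfap126.

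Tekt1 encodes a tektin, a filament protein that runs inside the doublet microtubules. Its values were 7.39, 8.44, 7.11, 8.02, 8.36 and 7.88 in ethanol arrays 1 to 6, and 7.18, 7.86, 8.29, 7.04, 8.13 and 8.55 in control arrays 1 to 6. Ethanol arrays 1 and 3 and control arrays 1 and 4 were the lowest, at 7.04 to 7.39, and the other 8 lay at 7.86 to 8.55, the widest separation among the members. A second tested Tekt1 probe divided the arrays in the same way, at 5.79 to 7.09 in the arrays low in Ttr, against 7.61 to 8.14 in the others. The Tekt1 window printed above holds GTTGCCA just upstream of the gene start, while a second start window of the gene holds none of the 3 motifs.

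Rsph1 encodes a protein of the radial spoke head. Its signal was 9.24, 9.69, 8.37, 9.67, 9.82 and 9.52 in ethanol arrays 1 to 6, and 9.04, 9.38, 9.93, 8.41, 9.71 and 10.22 in control arrays 1 to 6. Ethanol array 3 and control array 4, the arrays with the lowest Ttr, were also lowest here. Ethanol array 1 was the highest of the arrays low in Ttr and set the gap to the other 8, 0.13, which was 0.34 without that array. The other spoke genes did not divide the arrays: Rsph4a and Rsph9, also of the spoke head, ran from 7.43 to 8.19 and from 10.33 to 10.61 in the arrays low in Ttr, against 7.96 to 8.67 and 10.49 to 10.81 in the others.

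Spag16, a central apparatus protein, had 4.84, 5.98, 4.68, 5.84, 5.97 and 6.13 in ethanol arrays 1 to 6, and 5.18, 5.57, 6.19, 4.90, 5.39 and 6.38 in control arrays 1 to 6. It was detected on 0 of the 4 arrays low in Ttr and on 7 of the other 8, so its values in the low arrays are background and bound the true level from above. A further Spag16 probe, detected on 6 arrays, overlapped slightly, with 4.75 to 5.08 in the arrays low in Ttr, against 5.00 to 5.91 in the others. The Spag16 window printed above holds an X-box upstream of the gene start. Of the 6 members with the split that had a window, 1 held an X-box (16.7%), against 16% of motile genes. GTTGCCA was held by 2 of the 6 (33.3%), against 24% of motile genes. With so few genes no link between motif and split can be read from these shares.

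Cfap52 and Cfap126 encode proteins of the inner wall of the doublets, and Cfap126, also called Flattop, takes part in placing basal bodies. Cfap52 lay at 5.25 to 5.88 in the arrays low in Ttr, against 6.02 to 7.18 in the other 8. It was detected on 2 of the arrays low in Ttr and on all of the other 8, so part of its low range is background. Cfap126 lay at 5.81 to 6.70, against 6.77 to 7.63, a gap of 0.06 that rests on ethanol array 1. Without that array the Cfap126 gap was 0.60. Cfap97d2 had 5.66 to 6.00 in the arrays low in Ttr, against 6.15 to 6.85 in the others.

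Ift43, a small subunit of IFT-A, was the only transport member with the split on the probe that stood for its gene. Its values were 8.88 to 9.34 in the arrays low in Ttr, against 9.45 to 9.67 in the other 8. Further probes of Ift52 and of the motile gene Cfap69 also separated the arrays, by 0.10 and 0.02, while the probe of higher signal for each gene did not. Across the 28 further tested probes of members the split appeared in 3.

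**Figure D1:**
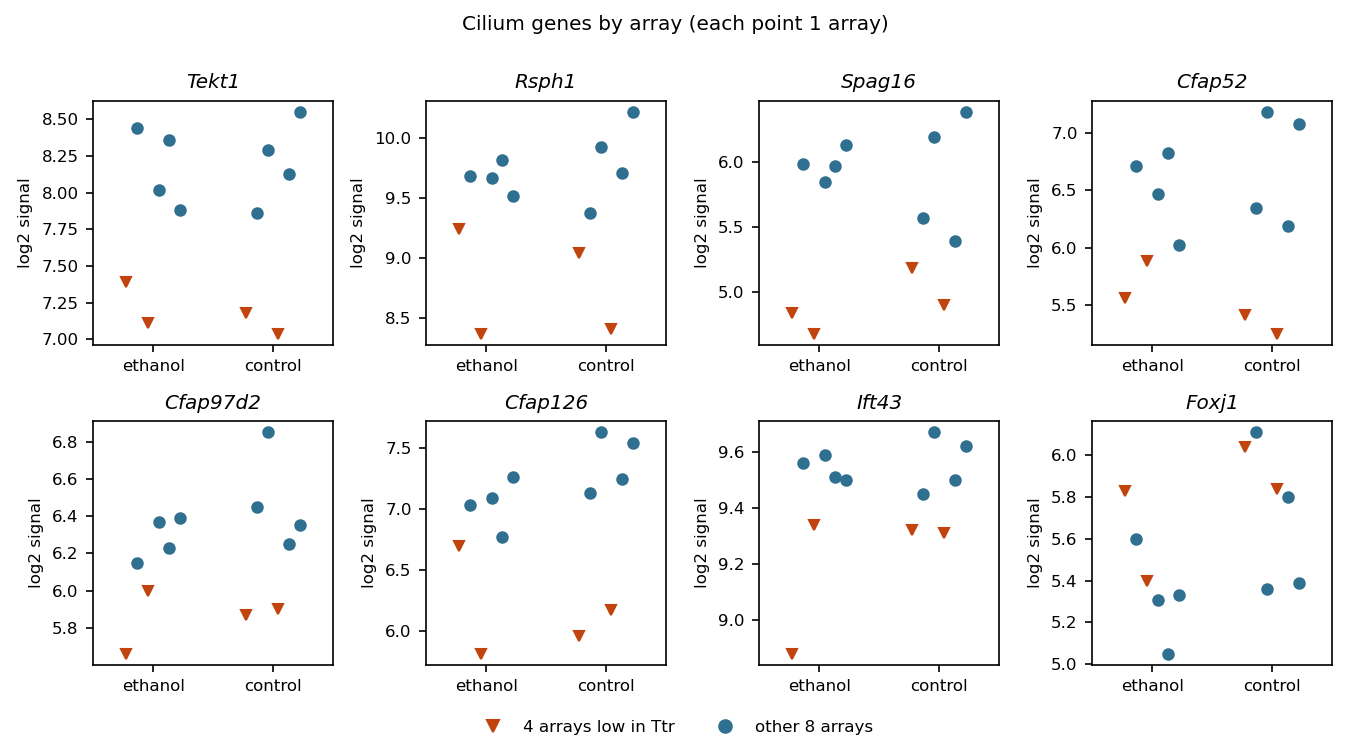
Log2 signal of 8 cilium genes, with 1 point for each array, ethanol arrays to the left and control arrays to the right in each panel. Triangles mark the 4 arrays low in Ttr and circles the other 8; the triangles lie below every circle for the 7 genes from Tekt1 to Ift43 but not for Foxj1.

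The regulators of the programme did not divide the arrays. Foxj1, the transcription factor that switches on motile cilium genes, ran from 5.40 to 6.04 in the arrays low in Ttr, against 5.05 to 6.11 in the other 8, and was detected on 3 of the low arrays and on 3 of the others. A message detected on only 6 arrays lies near the background of this platform. Rfx2 lay at 7.92 to 8.23 in the arrays low in Ttr, against 8.00 to 8.46 in the others. Rfx3 lay at 7.73 to 8.45, against 7.68 to 8.20. Enkur, a calmodulin-binding protein of the doublet wall, also overlapped, at 6.52 to 7.11 against 6.67 to 7.45.

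**Figure D2:**
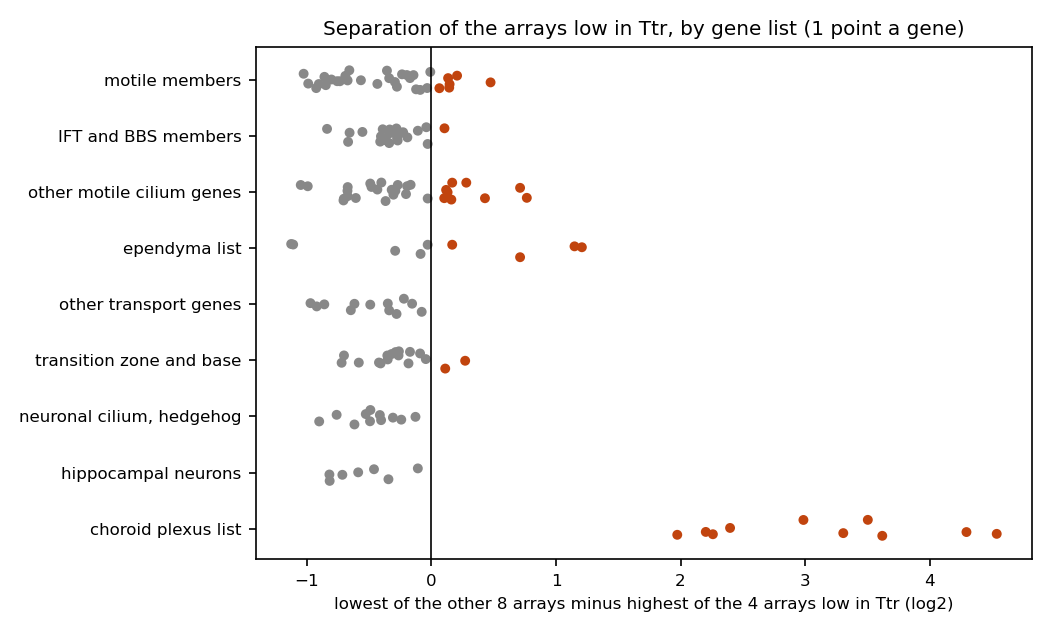
For each gene of a list, the lowest of the other 8 arrays minus the highest of the 4 arrays low in Ttr, in log2 units; points right of 0, coloured red, are genes whose low arrays all lie below the rest. Ttr, which defined the arrays, is left out. The 10 other choroid plexus genes lie far to the right, 6 motile and 1 transport member lie just right of 0, and no hippocampal neuron gene does.

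Other genes of the cilium, listed by role and not members by symbol, showed the order too. Of 30 tested genes in a list of other motile cilium genes 9 had it, among them Mlf1 (6.13 to 7.38 in the arrays low in Ttr, against 8.14 to 8.60). Of 9 tested ependyma markers 4 had it, among them Dydc2 (5.43 to 6.16, against 7.31 to 7.77), and Dynlrb2 and Pifo stand in both lists. It appeared in 2 of 17 genes of the transition zone and cilium base, Tmem237 and Tctn2. It appeared in 0 of 12 other transport genes and in 0 of 11 genes of the neuronal cilium membrane and the hedgehog pathway, which signals through the primary cilium. The part that ependymal or choroid plexus tissue in the dissection has in the values of the motile genes was not tested.

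The motile genes also varied more from array to array than the transport genes did. The standard deviation over the 12 arrays had a median of 0.32 log2 units in the 32 tested motile genes (0.14 to 0.64), against 0.16 in the 24 transport genes (0.09 to 0.42) and 0.17 in all named genes. The motile genes were also dimmer, with a median signal per array of 6.35 to 7.09, against 8.74 to 9.14 in the transport genes. The classes were not matched for signal, and its part in the wider spread was not tested. The 10 members with the largest values were all motile: Cfap52, Cfap126, Spag16, Rsph1, Maats1, Tekt1, Cfap65, Cfap206, Cfap161 and Cfap157. Of these 5 are described above as dividing the arrays and 5 are not. Maats1, whose counterpart in the alga Chlamydomonas sits at the base of the radial spokes, came close, with 5.96 to 6.99 in the arrays low in Ttr, against 6.98 to 7.71. Cfap206, a spoke base protein by work in Tetrahymena, had 4.86 to 5.71, against 5.68 to 6.63. Cfap65, needed for sperm flagella in mice, ran from 5.15 to 6.27 in the arrays low in Ttr, against 5.54 to 6.84 in the others.

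Pairs of motile genes tended weakly to move together across arrays. After the group means were removed, the correlation between motile genes had a median of 0.27 over the 12 arrays, against 0.10 between transport genes, 0.09 between motile and transport genes and 0.00 between all named genes. Over the 8 arrays not low in Ttr the median was 0.28 between motile genes, 0.20 between transport genes and 0.14 between the classes. These values are a description, since the arrays share beadchips and signal near background adds noise. Control array 3 was high for Cfap52 (7.18), Cfap126 (7.63), Cfap65 (6.84) and Cfap161 (6.73), and control array 6 for Tekt1 (8.55), Rsph1 (10.22) and Spag16 (6.38), and neither array was low in Ttr. Detection followed the same order in part. The number of the 32 motile genes detected was 29 and 25 in ethanol arrays 1 and 3 and 29 and 26 in control arrays 1 and 4, and ran from 28 to 32 in the other 8 arrays. Over all probes the number detected ran from 20804 to 21672 per array.

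**Figure D3:**
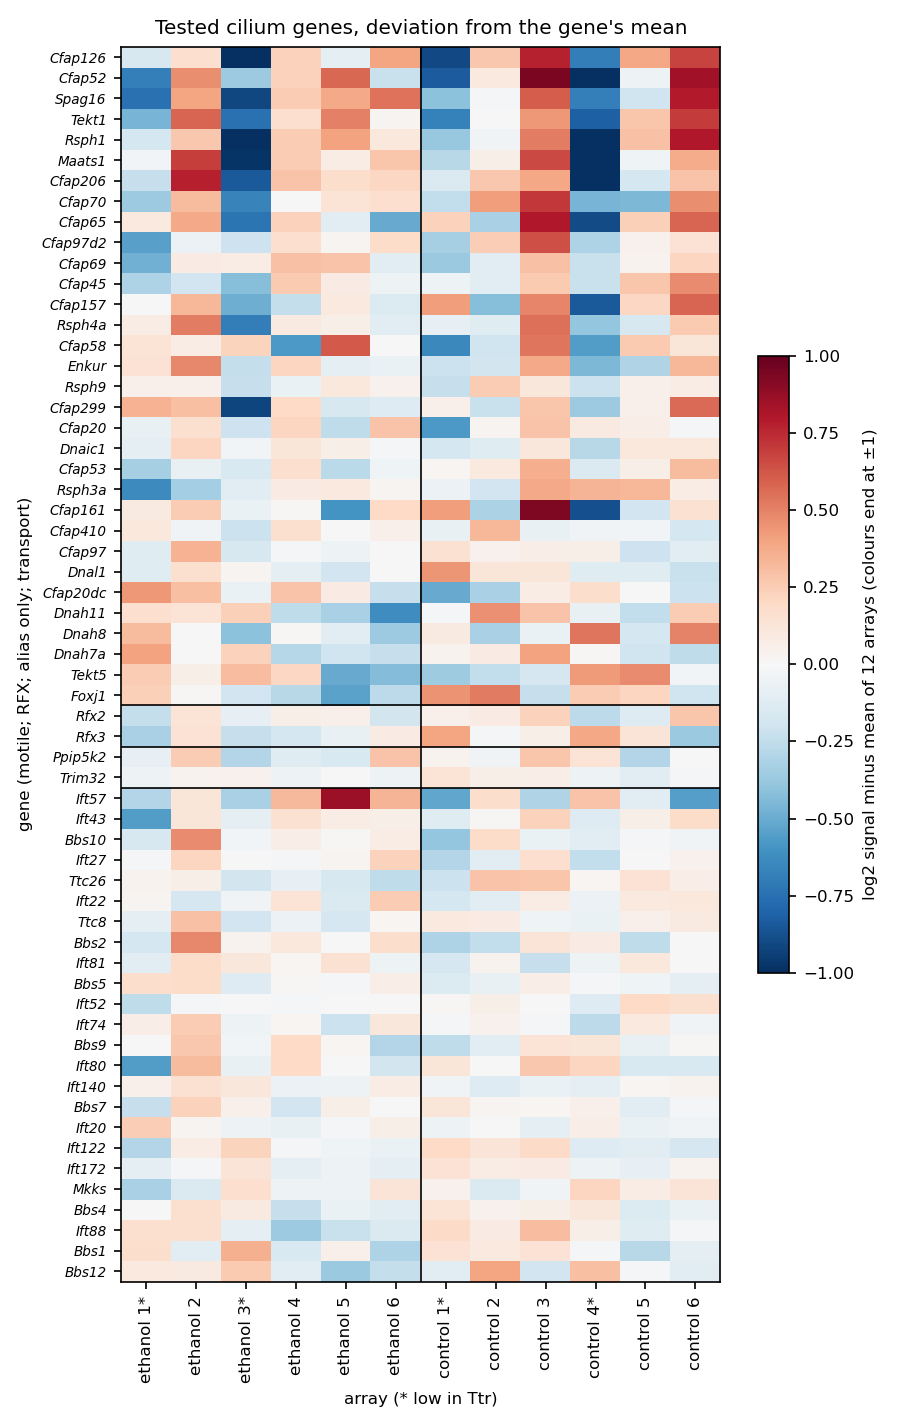
Log2 signal of the 60 tested cilium genes in each array minus the gene's mean over the 12 arrays, with ethanol arrays left and control arrays right of the vertical line and an asterisk on the 4 arrays low in Ttr. The rows run from motile genes at the top through the RFX factors and alias genes to transport genes at the bottom; the deepest blue of the top rows stands in the 4 marked arrays, and the transport rows are mostly paler, with darker cells for Ift57, Ift43 and Ift80.

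Ethanol was then compared with control over all 12 arrays by a limma fit over 21263 probes, which asks whether drinking in early gestation left a mark on these messages at 3 weeks. No cilium gene passed. At a Benjamini-Hochberg adjusted p of 0.05 the count was 0 of 60 members, and across the array it was 0 of 11401 genes (0%), with a lowest adjusted p of 0.73. At an unadjusted p under 0.05 limma gave 2 members lower in ethanol, Foxj1 and Cfap53, and 0 higher, on the probe of highest signal for each gene. That is 2 of 60, against 4.49% of all genes in either direction, 2.05% lower and 2.44% higher, so the members' share was close to that of the array. Of the 28 further tested probes of members 3 had such a p: Ift140 (-0.27, unadjusted p = 0.00984), Dnal1, an outer arm light chain (-0.21, unadjusted p = 0.0316), and Ift20 of IFT-B (0.18, unadjusted p = 0.0255). In 0 of 60 members did the groups fail to overlap, against 0.219% of all genes. Counted by sign alone 23 members were higher and 37 lower in ethanol, against 5918 higher and 5483 lower among all genes. The median difference, ethanol minus control, was -0.031 over the members, against 0.005 over all genes. By role, 11 motile genes were higher and 21 lower with a median of -0.031, and 12 transport genes were higher and 12 lower with a median of -0.011.

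The fit bounded the size of the differences on the scale of the normalized signal. On the probe that stood for each gene the differences ran from -0.34 to 0.34 log2 units. On these probes the 95% interval lay within a 2-fold difference in either direction for all 60 tested members. It lay within 1.5-fold for 23 of 24 transport genes and 19 of 32 motile genes. Further probes could go beyond these bounds: 1 of Mkks gave -0.41 (-0.93 to 0.11) and 1 of Tekt1 gave -0.24 (-1.01 to 0.52). For the 9 members that varied most or divided the arrays, and are not named otherwise in this comparison, the differences ran from -0.21 to 0.12 and the intervals from -0.84 to 0.72. The precision was limited by the number of arrays and, for motile genes, by the wider spread described above. The offset added in background correction draws differences of dim probes towards 0. For members not detected on all arrays, among them Foxj1, Spag16, Cfap53 and Ift57, the intervals therefore do not bound the change in the message.

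Among regulators, Foxj1 was at 5.83, 5.60, 5.40, 5.31, 5.05 and 5.33 in ethanol arrays 1 to 6, and at 6.04, 6.11, 5.36, 5.84, 5.80 and 5.39 in control arrays 1 to 6. The groups overlapped, with ethanol array 1 above 3 of the control arrays, and Foxj1 was detected on 2 ethanol and 4 control arrays. Foxj1 averaged 5.42 ± 0.27 in ethanol and 5.76 ± 0.32 in control (SD, n = 6 each), a limma difference of -0.34 (95% interval -0.67 to -0.01, unadjusted p = 0.0464, adjusted p = 1). Its size depended on the background step, at -0.12 with none and with the authors' processed values and -0.20 with a larger offset, and it was -0.34 without the arrays low in Ttr. Rfx2 differed by -0.09 (-0.31 to 0.13) and Rfx3 by -0.19 (-0.47 to 0.09), and the sign of Rfx3 turned, to 0.05, without the arrays low in Ttr.

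Among axonemal genes, Cfap53, a doublet wall protein needed for left-right patterning in mice, had the smallest unadjusted p on the probe that stood for its gene. Its values in ethanol arrays ran from 5.32 over a median of 5.54 to 5.82, and in control arrays from 5.51 over 5.73 to 6.02. The groups overlapped over much of that range, and Cfap53 was detected on 3 ethanol and 6 control arrays. The means were 5.54 ± 0.18 in ethanol and 5.77 ± 0.19 in control (SD, n = 6 each), and the limma difference was -0.24 (-0.46 to -0.01, unadjusted p = 0.0423, adjusted p = 1), or -0.08 with no background correction. Rsph3a, of the radial spoke stalk, differed by -0.29 (-0.59 to 0.01), with 8.31 to 9.05 in ethanol and 8.76 to 9.33 in control. Cfap45, another doublet wall protein, differed by -0.21 (-0.51 to 0.09), with 7.31 to 8.00 in ethanol and 7.52 to 8.21 in control. In the other direction Cfap20dc differed by 0.27 (-0.02 to 0.56), with 7.06 to 7.72 in ethanol and 6.78 to 7.46 in control. Of the genes that divided the arrays by Ttr, Tekt1 differed by 0.02 (-0.59 to 0.64), Rsph1 by -0.06 (-0.70 to 0.58) and Spag16 by -0.03 (-0.68 to 0.63). The second Tekt1 probe gave -0.24 (-1.01 to 0.52), so its probes differed in sign. Enkur differed by 0.14 (-0.20 to 0.48).

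Among transport genes, the IFT-B subunit Ift57 stood highest against control. It had 5.49, 5.90, 5.46, 6.11, 6.64 and 6.12 in ethanol arrays 1 to 6, and 5.26, 5.96, 5.48, 6.07, 5.67 and 5.23 in control arrays 1 to 6. Ethanol array 5 was the highest and control array 6 the lowest, and the groups overlapped between 5.46 and 6.07. Ift57 was detected on 5 ethanol and 4 control arrays. The difference was 0.34 (-0.10 to 0.78, unadjusted p = 0.116, adjusted p = 1 by limma), and it was 0.13 with no background correction, 0.20 without ethanol array 5 and 0.61 without the 4 arrays low in Ttr. Ift27, the IFT-B subunit that is a small GTPase, differed by 0.14 (-0.05 to 0.33). Ttc26, another IFT-B subunit, differed by -0.20 (-0.40 to 0.01), with 7.10 to 7.41 in ethanol and 7.14 to 7.64 in control. Ift88, an IFT-B core subunit whose window is printed above, differed by -0.17 (-0.39 to 0.05), but a second Ift88 probe gave 0.17. Ift140, of IFT-A, differed by 0.09 (-0.05 to 0.23) on the probe of highest signal and by -0.27 on another, so its probes disagreed in sign. The BBSome subunits Bbs2 and Bbs5 differed by 0.20 (-0.05 to 0.45) and 0.10 (-0.05 to 0.25). Probes of 1 gene differed in sign for 10 of the 22 members with several tested probes.

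**Figure D4:**
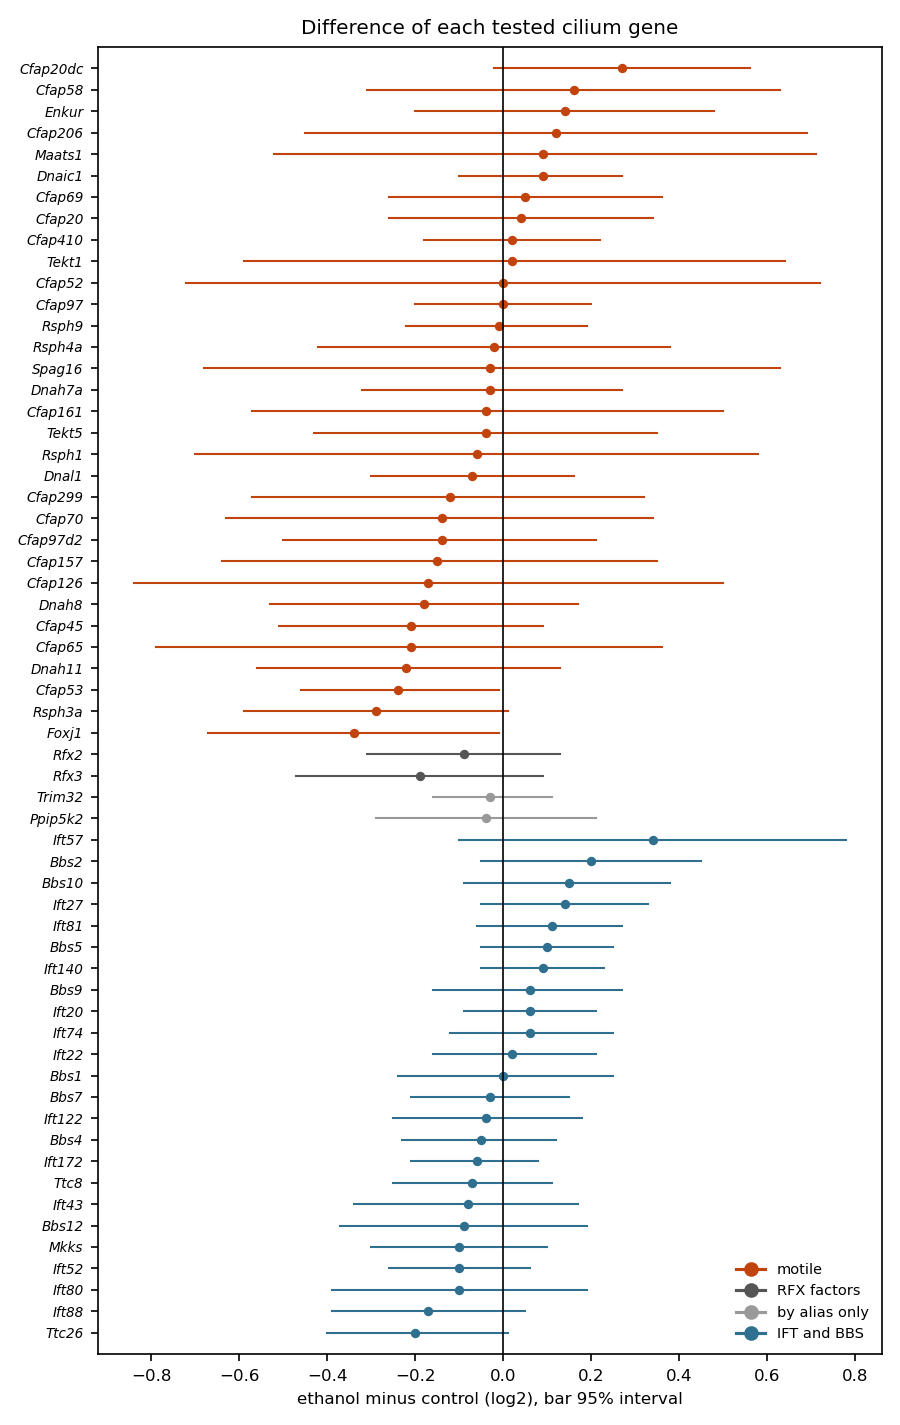
Ethanol minus control in log2 units for each of the 60 tested cilium genes, with points for the limma difference and bars for its 95% interval; motile genes are at the top, then the RFX factors, the alias genes and the IFT and BBS genes. On the probe of highest signal for each gene, differences run from -0.34 (Foxj1) to 0.34 (Ift57). The bars of motile genes are wider than those of transport genes.

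The other genes of the pathway gave no call either. Of 30 tested other motile cilium genes 0 passed at the adjusted threshold and 1 was lower at an unadjusted p under 0.05, Spef1, a microtubule-bundling protein of the central apparatus, at -0.36 (unadjusted p = 0.0378). Of 12 other transport genes 0 passed and 1 was lower at that level, Traf3ip1, the IFT-B subunit also called IFT54, at -0.38 (unadjusted p = 0.0470). Among 17 transition zone genes, 11 genes of the neuronal cilium membrane and hedgehog signalling and 9 ependyma markers, 0 passed and 0 had an unadjusted p under 0.05. The medians of these lists, ethanol minus control, were -0.052 for other motile genes, -0.017 for other transport genes, -0.002 for the transition zone, -0.067 for the neuronal cilium and hedgehog list and -0.035 for ependyma.

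Within beadchips the motile genes did not keep a common direction. Their median difference was -0.179 on beadchip 1, which holds 2 ethanol and 1 control array low in Ttr, and 0.064 on beadchip 2, which holds 1 control array low in Ttr. Without the 4 arrays low in Ttr it was -0.125, from 4 arrays a group. Spag16 also differed in sign between the beadchips, at -0.48 on beadchip 1 and 0.43 on beadchip 2.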

How the data were processed

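The deposited scanner table held a bead intensity and a detection p-value for each of 45281 probes and 12 arrays, per the file headers. These deposited intensities were linear and not normalized (array medians 132.6 to 152.1). A second deposited table held the authors' processed intensities, with 1 median of 141.6 in every column. GenomeStudio 1.9.0 made them, per the submitters' processing notes. No sample column was left unused (0).

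Background was corrected in limma 3.58.1 by normexp, with its parameters inferred from the detection p-values (R 4.3.3, statmod 1.5.0), and with an offset of 16; values were then quantile normalized and put on the log2 scale. The offset draws differences of dim probes towards 0. Probes detected at p under 0.05 on at least 6 of 12 arrays were tested (21263). Probes were named by the platform annotation, and current symbols were looked up by Entrez number in the GRCm38.p6 table: 34885 probes had 1 gene, and 18 had several and were left unnamed. The tested probe of highest mean signal stood for a gene. Groups were compared by lmFit and eBayes on all 12 arrays, and p-values were adjusted by Benjamini-Hochberg across the tested probes. Arrays low in Ttr were those below its widest gap.

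The members and gene lists were chosen with earlier results of these data known. Named genes were the always-named members, the 6 smallest p-values in each direction, the 10 largest standard deviations, the members whose arrays low in Ttr did not overlap the rest, and up to 2 of highest signal per role and 3 per other list. Genes named only as untested, as spoke genes beside Rsph1, or as examples of lists were chosen after their values were seen.

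On simulated data of 21263 probes with 200 changed, 55.4% of changes of 0.5 log2 units and 96% of changes of 1 were recovered, with 3.77% false calls. The simulated noise was independent between probes, and the rates are over all tested probes. They therefore do not give the recovery for the motile genes, whose spread was wider and which tended to move together across arrays. Correlations between arrays ran from 0.9807 to 0.9927, and 0 pairs of arrays held identical values. Shared replicate numbers did not pair the arrays.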

Additional observations from a re-analysis of the deposited data

Results flagged for a closer look

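For the 41 tested members that the naming rules gave, 82 sets of 6 arrays were examined for a single array that stood far from the other 5, by Dixon's 95% critical value, which chance passes in about 1 of 20 sets. It was passed in 4 sets, all of them ethanol arrays. Cfap161, a doublet wall protein, was at 5.20 in ethanol array 5, while the other 5 ethanol arrays lay between 5.73 and 6.05; that array was not low in Ttr. Ift43, of IFT-A, was at 8.88 in ethanol array 1, which was low in Ttr, while the other 5 lay between 9.34 and 9.59. Cfap97 was at 10.97 in ethanol array 2, while the other 5 lay between 10.46 and 10.62. Ift172, of IFT-B, was at 11.26 in ethanol array 3, which was low in Ttr, while the other 5 lay between 11.03 and 11.12.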

How the results depend on the processing

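No setting gave a cilium gene past the adjusted threshold in limma: the count was 0 in every fit, including those that left out 1 array each (0 to 0), and 0 over all probes. The number at an unadjusted p under 0.05 moved between 0 and 5. With the replicate number as a block it was 2 and 0 passed, as without it; same-number arrays correlated from -0.25 to 0.33, 4 of 6 pairs were above 0.1 and 2 of 12 arrays correlated best with their own number. The count of members with all arrays low in Ttr below the rest was 7, 5 with detection required on all 12 arrays, 10 with the mean of all probes of a gene, 13 on beadchip 1 alone and 26 on beadchip 2 alone. Fewer arrays make this order easier to reach: all named genes had it in 9.62% on beadchip 1 and 20.2% on beadchip 2. Leaving out 1 array at a time, chosen after the data were seen, gave 7 to 10, against 2.99% to 4.18% of all genes.

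Some differences turned sign with the setting. Most of these were near 0 in the main fit, but Rfx3 was at -0.19 there. With arrays scaled to a common median Rsph1 and Spag16 were at 0.00, and all genes moved to a median of 0.057. With the mean of probes Ift140 was at -0.09 and Tekt1 at -0.11. Array weights put Spag16 at 0.06. Without the arrays low in Ttr, Tekt1 was at -0.03, Rfx3 at 0.05 and Spag16 at 0.10. Beadchip 1 alone gave Tekt1 -0.13; beadchip 2 alone gave Rsph1 0.23, Rfx2 0.01 and Spag16 0.43. With 1 array left out, Spag16 ran from -0.17 to 0.15, Rsph1 from -0.27 to 0.14 and Tekt1 from -0.14 to 0.17. The causes of these turns were not tested. Dim probes shrank without background correction and in the authors' processed values, to -0.12 for Foxj1, -0.08 for Cfap53 and 0.13 for Ift57, and with an offset of 50 to -0.20, -0.14 and 0.22. Foxj1, Spag16, Cfap53 and Ift57 were not detected on all arrays, which limits what their low values show.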
